A study of Arabidopsis thaliana with 42 samples.

Results

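Leaves of the *Arabidopsis thaliana* mutant *rpn12a-236* were compared with leaves of the wild type (WT) before any leaf was darkened. The comparison rests on 6 of the 42 RNA-seq libraries of the study, 3 of *rpn12a-236* and 3 of WT, all prepared from leaf blades of short-day plants that stood in the light and were harvested at 8 am on day 0. The mutant group carried an ethyl methanesulfonate (EMS) mutation that puts a stop in place of the glutamine at codon 236 of *RPN12A* (AT1G64520), in the Col-0 ecotype, and the line had been backcrossed. The WT group was Col-0 without the mutation, at the same age, light and hour. The study reports smaller rosettes and later bolting in the mutant, so leaves of the same age can differ in developmental stage. Stage and genotype cannot be told apart here. Each replicate was a pool of 2 leaves taken from independent plants. All mutant libraries come from 1 line, which by the study's sequencing carries homozygous coding changes in 7 genes, all on chromosome 1, so a difference described here cannot be told apart between *RPN12A* and the other genes on that list. The remaining libraries are WT leaves kept in the light and individually darkened leaves (IDLs) of both genotypes, taken 6 h to 6 d later, and they served for the estimate of the spread and for setting the 0 d differences beside those of later times.

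The deposited value is 1 z-score per gene and library, scaled for each gene to mean 0 and SD 1 over the 42 libraries. A difference of 1 is therefore 1 SD of that gene over all libraries, darkness included, and it gives no fold change and no level of expression, and library depth is not kept in it. A gene that darkness moves strongly shows a small z-score difference for a given change at 0 d. Of 27050 genes, 21444 were tested, namely those with at least 3 of the 6 libraries above the floor (the lowest z-score of a gene, where at least 2 of the 42 libraries share it). In the 6 libraries, 5303 to 6021 genes stood at their floor, and the library medians over the genes without a floor lay between -0.0056 and 0.0308. Genes were called at a limma adjusted p of at most 0.01 in a model of the 30 time-course libraries, and "rose" and "fell" are used only of called genes. An exact permutation test of a single gene with 3 against 3 libraries cannot give a p under 0.10, so none is printed for single genes.

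The 26S proteasome degrades proteins that carry ubiquitin chains. Its 20S core is a barrel of alpha and beta rings with the proteolytic sites inside, and the 19S regulatory particle, made of a base with RPT ATPases and a lid of RPN subunits, receives, unfolds and feeds in the substrate. RPN12 is a subunit of the lid. Several plant hormones act through this machine: the jasmonate receptor COI1 marks the JAZ repressors for degradation, which frees MYC transcription factors, and auxin and gibberellin signalling remove the Aux/IAA and DELLA repressors in the same way. In plants, as in other eukaryotes, loss of proteasome capacity is known to be followed by higher transcript levels of proteasome subunit genes, for which the transcription factors NAC53 and NAC78 are required in Arabidopsis.

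The mutated codon is shown first because it defines the mutant group. In the TAIR10.1 assembly, the reference sequence around codon 236 of *RPN12A* lies at chr1:23958010-23958036 on the plus strand, in coding exon 6 of 6, and the capitals mark the glutamine codon that becomes a stop. The reference protein has 267 residues, and 31 of them follow this codon.
RPN12A codon 236: tttgttgtcttcCAGaaagccaaagaa

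Short promoter stretches are shown next because proteasome and jasmonate genes, the lists with most genes higher in the mutant, are known targets of factors with short binding sequences. TGGGC is the core of the element that NAC53 and NAC78 bind, and CACGTG, the G-box, is bound by bHLH factors such as MYC2. Windows from 250 bases before to 50 bases after the annotated gene start were read from the RefSeq annotation of TAIR10.1 for all 56 proteasome and all 37 jasmonate genes tested, and for 19925 of all genes tested. The capitals mark TGGGC or its reverse complement GCCCA, and CACGTG, which is its own reverse complement. The letters TGGGCCCA hold a match on both strands, and no match of TGGGC overlaps one of CACGTG in the stretches shown.
PBA1, chr4:15188625-15188649, plus strand: aagtaggtatTGGGCttgtatttgg
PBA1, chr4:15188665-15188689, plus strand: aaatatgtatTGGGCttttatttgg
PBA1, chr4:15188705-15188729, plus strand: aaatagatatTGGGCtttcacgttt
RPT2A, chr4:14312212-14312236, plus strand: aactattgttTGGGCctaatattta
JAZ2, chr1:28150498-28150521, minus strand: aaattaaaaCACGTGttttaaatg
JAZ7, chr2:14572987-14573010, plus strand: agcattttaCACGTGcgtgaagag
AOS, chr5:17099587-17099610, minus strand: gagtcaaagCACGTGgctaaatga

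TGGGC on either strand stood in 62.7% of the windows of the 51 proteasome genes that rose (32 of 51), in 58.9% of all 56 tested, and in 29.7% of the windows of all genes tested. Relative to the annotated gene start, the 3 matches of *PBA1* begin at -109, -69 and -29. Among all genes that rose the share was 27.1%, and among all that fell 28.3%. CACGTG stood in 24% of the windows of the 25 jasmonate genes that rose (6 of 25), in 16.2% of the 37 tested, and in 8.79% of all genes tested. It stood in 42.1% of the 19 flavonoid genes that fell (8 of 19) and in 35.9% of the 39 photosystem and antenna genes, of which 1 was called. A match of these letters describes the window and is not evidence of binding.

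Before darkening, 4409 of 21444 genes differed between *rpn12a-236* and WT (20.6%). In the mutant 2010 genes rose (9.37%) and 2399 fell (11.2%), and the median difference of all genes tested was -0.098. Called genes differed by 0.41 to 3.84 in absolute z-score, with a median of 1.54 among those that rose and of -1.27 among those that fell. Differences beyond 2 were found for 487 genes that rose and for 261 that fell. The 3 mutant libraries did not overlap the 3 WT libraries in 4363 of the called genes, and over all genes tested the groups did not overlap in 48.1%. For 3167 called genes the mutant libraries also lay outside all 12 WT light libraries of 8 am, from 0 d to 6 d, against 23.8% of all genes tested. The share of genes called on each chromosome ranged from 19.1% to 21.8%, and chromosome 1, which carries the listed coding changes, had 21.2%. On the 6 libraries alone the same threshold called 1962 genes (9.15%), 995 higher (4.64%) and 967 lower (4.51%). A threshold of 0.001 called 10.8% of the genes, and setting the mutant against all WT light groups of 8 am called 33.8%.

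*RPN12A* was the gene that labels the groups, and its transcript was higher in the mutant. Its z-scores were 1.37, 1.28 and 1.19 in the *rpn12a-236* libraries, against -0.91, -0.74 and -0.85 in WT. The difference of 2.11 (SE 0.12, adjusted p = 7.71e-12) exceeds the spread within either group, and the groups do not overlap. A stop codon does not by itself remove a transcript, so this value does not check the genotype. *RPN12B* (AT5G42040), the paralog on chromosome 5, had 1.75, 1.33 and 1.64 in the mutant, against 0.78, 0.53 and 0.95 in WT, a difference of 0.82 that was not called (SE 0.39, adjusted p = 0.109). Of the other genes with a homozygous coding change, AT1G34750, annotated as a protein phosphatase of the 2C family, rose by 2.27 (2.00, 2.60 and 2.43 in the mutant, against -0.15, -0.55 and 0.92 in WT, adjusted p = 2.19e-05). *SAM1*, an S-adenosylmethionine synthetase, was not called (difference -0.71, adjusted p = 0.0362), nor were AT1G64320 and AT1G65120. AT1G58050 stood at its floor in all 6 libraries and was not tested, and AT1G35617 was not among the genes analysed here.

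Proteasome subunit genes rose together. Of the 56 subunit genes tested, 51 rose (91.1%) and none fell in the mutant, against 9.37% and 11.2% of all genes tested. Their median difference was 2.01. In 50 of the 56 the mutant lay outside all 12 WT light libraries of 8 am, against 23.8% of all genes tested. In 53 genes all mutant libraries lay above all WT libraries, against 20.4% of all genes tested. The 13 genes of the 20S alpha ring all rose, by 1.84 to 2.32, and so did the 11 genes of the beta ring, by 1.77 to 2.29. In each library the mean of the alpha ring genes was 1.34 to 1.45 in the mutant, against -0.75 to -0.63 in WT. *PBA1*, which encodes the beta subunit with caspase-like activity, had 1.66, 1.57 and 1.60 in *rpn12a-236*, against -0.61, -0.59 and -0.83 in WT (difference 2.29, SE 0.16, adjusted p = 1.39e-10). Pairs of these genes, such as *PAA1* and *PAA2* or *PBB1* and *PBB2*, are close paralogs that share sequence, so how their reads were split is uncertain.

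In the 19S particle, 10 of 11 RPT ATPase genes, all 6 genes of the other base subunits and 11 of 15 lid genes rose. *RPT1B* (0.94) was lost without any of 5 libraries (adjusted p up to 0.0236). *RPT6B* rose by 2.29 (1.36, 1.31 and 1.34 in the mutant, against -0.95, -0.84 and -1.08 in WT), while its paralog *RPT6A* had 0.10, 0.13 and 0.19 against -0.76, 0.37 and -0.08, groups that overlap (difference 0.30, adjusted p = 0.558). *RPN10* and *RPN13*, receptors for ubiquitin chains, rose by 2.21 and 0.99 (*RPN13* 0.83, adjusted p = 0.0116, without mutant replicate 1). The lid genes with the smallest p were *RPN8B* (2.24), AT4G24820, annotated as Rpn7 (2.23), and *RPN12A* itself. Besides *RPN12B* and *RPT6A*, the genes that were not called are *RPN3B* (1.43, adjusted p = 0.0287), *RPN9A* (-0.10, adjusted p = 0.87) and *DSS1I* (-0.48, adjusted p = 0.234), and for *RPN3*, *RPN9* and *DSS1* the other paralog rose, by 1.98 (*RPN3A*), 2.13 (*RPN9B*) and 2.17 (*DSS1V*). With any 1 of the 6 libraries left out, 49 to 51 proteasome genes were called. In IDLs of 6 h, 1 d, 3 d and 6 d, in this order, 49, 50, 52 and 52 of the 56 genes were higher in the mutant, with medians of 1.93, 1.74, 2.05 and 2.01, against 5.55%, 12.8%, 15.4% and 19.2% of all genes tested.

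Of 29 genes that build or serve the proteasome, 13 rose (44.8%) and 1 fell (3.45%), against 9.37% and 11.2% of all genes tested. Of 8 assembly and regulator genes 6 rose, namely the maturation factors *UMP1A* (1.98) and *UMP1B* (1.95), the activator *PA200* (2.04), *ECM29* (1.67), *PTRE1* (1.77) and *DDI1* (1.96). The other 2, the activators *NAC53* and *NAC78*, were not called: *NAC53* had -0.44, -1.2 and -1.21 in the mutant, against -0.61, -0.66 and -0.82 in WT (difference -0.25, adjusted p = 0.542), and *NAC78* differed by -0.39 (adjusted p = 0.136). Among 12 genes of CDC48, a segregase that extracts ubiquitinated proteins, and of its cofactors and ubiquitin shuttles, *CDC48A* (2.08), *CDC48B* (1.78) and the shuttle *DSK2A* (1.86) rose and the cofactor *NPL4A* fell (-1.54). *CDC48A* had 1.37, 1.34 and 1.22 in the mutant, against -0.76, -0.67 and -0.89 in WT, with no overlap. Of 9 genes of ubiquitin and its cycle 4 rose, the polyubiquitin genes *UBQ10* (1.29) and *UBQ11* (0.92) and the deubiquitinases *UBP6* (1.98) and *UBP7* (1.21). *UBQ10* and *UBQ11* consist of near-identical repeats, which makes their values uncertain, and *UBQ11* was lost without any of 4 libraries (0.58, adjusted p = 0.0526, without mutant replicate 3). *UPOX1*, a mitochondrial protein gene used as a marker of oxidative stress, rose by 2.03 (1.23, 1.12 and 1.05 in the mutant, against -0.89, -0.85 and -0.94 in WT), and the other 6 genes of the mitochondrial stress list were not called.

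**Figure D1:**
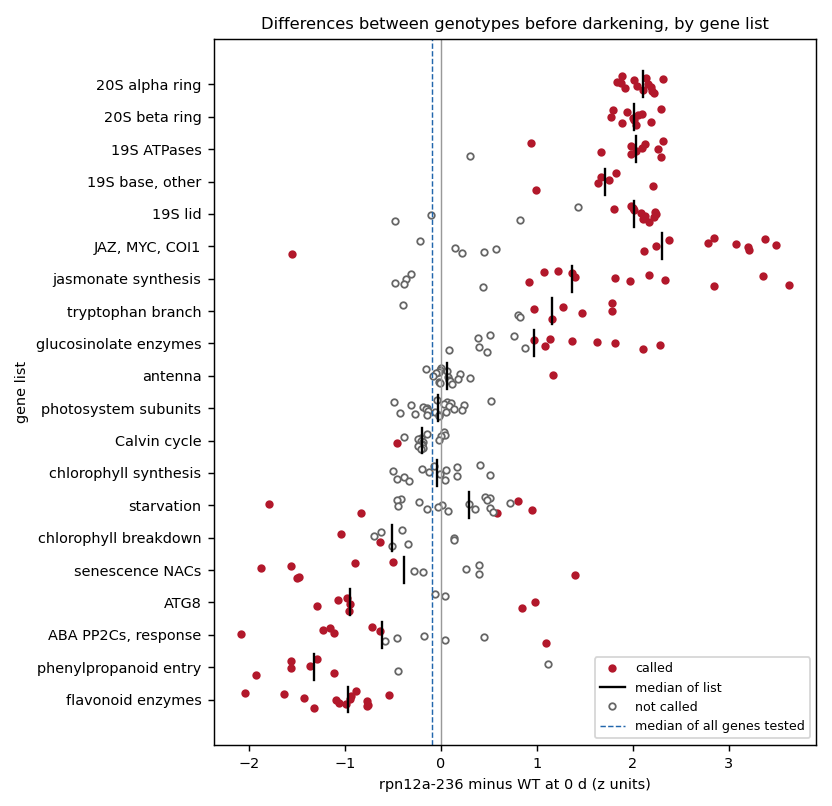
Difference of *rpn12a-236* minus WT at 0 d in z units (horizontal axis) for the tested genes of 20 lists (vertical axis). Filled points are called genes, open points genes that were not called, black bars list medians and the dashed line the median of all genes tested (-0.098). Proteasome lists have medians between 1.71 and 2.11 and the 14 flavonoid enzyme genes are all below 0, while antenna and photosystem genes lie around 0.

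Jasmonate genes formed the second large group that rose. Of 37 genes tested, 25 rose (67.6%) and 1 fell (2.7%), with a median difference of 1.82, against 9.37% and 11.2% of all genes tested. In 28 of the 37 the mutant lay outside all 12 WT light libraries of 8 am, against 23.8% of all genes tested. Among the repressors and their partners, *JAZ1*, *JAZ2*, *JAZ3*, *JAZ5*, *JAZ6*, *JAZ7*, *JAZ9*, *JAZ10* and AT3G22275 (annotated as a jasmonate ZIM-domain protein) rose, as did *MYC2*, the transcription factor that JAZ proteins hold back. *JAZ1* had 0.81, 1.58 and 1.64 in *rpn12a-236*, against -1.23, -1.51 and -1.80 in WT (difference 2.85, SE 0.21, adjusted p = 3.04e-10). *JAZ2* had 0.97, 2.78 and 2.74 in the mutant, against -0.92, -1.21 and -1.51 in WT (difference 3.38, SE 0.36, adjusted p = 2e-07). *MYC2* had 1.77, 2.34 and 2.34 in the mutant, against 0.20, -0.00 and -0.09 in WT (difference 2.12, SE 0.20, adjusted p = 2.76e-08). In each of these genes the 3 mutant libraries lie above the 3 WT libraries, and mutant replicate 1 lies below the other mutant libraries.

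*JAZ4*, *JAZ11*, *JAZ12*, *MYC3* and *MYC4* were not called, with differences from -0.22 (*JAZ4*) to 0.57 (*JAZ12*), and *JAZ8* was not tested, being at its floor in mutant replicate 1 and in all WT libraries, with 2.52 and 3.51 in mutant replicates 2 and 3. *COI1*, the F-box protein of the jasmonate receptor, fell: it had -0.44, -0.11 and 0.16 in the mutant, against 1.09, 1.33 and 1.83 in WT (difference -1.55, SE 0.23, adjusted p = 1.93e-05), without overlap.

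Genes for most steps of jasmonate synthesis rose. Of 17 genes of synthesis and turnover, 12 rose (70.6%) and none fell, against 9.37% and 11.2% of all genes tested. The plastid steps were represented by the lipoxygenases *LOX2* (1.22), *LOX3* (1.08) and *LOX4* (1.37), by allene oxide synthase *AOS* (2.17) and by the allene oxide cyclases *AOC1* (3.36), *AOC2* (1.4) and *AOC3* (1.82). *AOS* had 2.41, 2.39 and 2.35 in the mutant, against 0.22, 0.33 and 0.10 in WT, and *AOC1* had 2.82, 2.79 and 2.85 against -0.51, -0.46 and -0.64. The cyclase genes are close paralogs and 3 of them are neighbours on chromosome 3, so the split of reads among them is uncertain. The peroxisomal steps rose with *OPR3* (2.34), which reduces the cyclic precursor, *OPCL1* (1.97) and *ACX1* (0.92). *CYP94B3* and *CYP94C1*, which oxidise and so inactivate the conjugate that COI1 perceives, rose too, and *CYP94B3* had 2.31, 3.25 and 3.71 in the mutant while all 3 WT libraries stood at its floor. *LOX6*, *AOC4*, the methyltransferase *JMT*, *ST2A* and the conjugating enzyme *JAR1* were not called (*JAR1* -0.48, adjusted p = 0.0189). Of 4 response genes 3 rose, the vegetative storage protein genes *VSP1* (2.85) and *VSP2* (2.73), which are similar in sequence, and the tyrosine aminotransferase *TAT3* (1.19), and *PDF1.2* was not called (0.58, adjusted p = 0.164). *TAT3* lost its call without any of 4 libraries (adjusted p up to 0.0327).

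**Figure D2:**
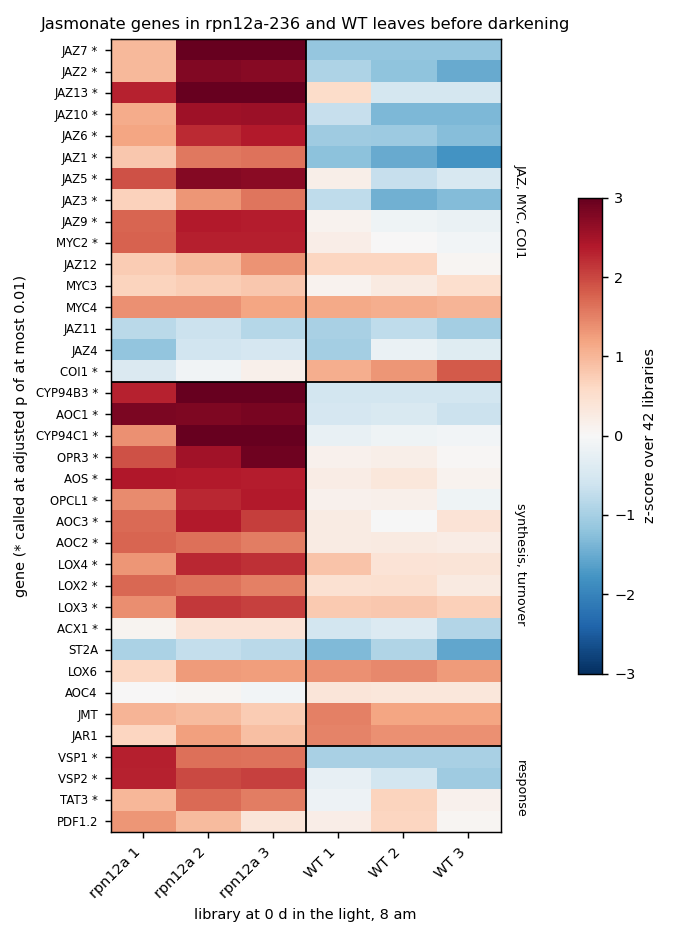
z-scores of the 37 tested jasmonate genes (rows, in 3 blocks, ordered by difference) in 3 *rpn12a-236* and 3 WT libraries taken at 0 d (columns), with colour from -3 to 3 and stronger values drawn at the end of the scale. Asterisks mark called genes. Mutant replicate 1 is paler than the other 2 mutant libraries in all 10 JAZ and MYC genes that rose.

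The mutant libraries were not alike in this group. The mean of all 37 jasmonate genes was 1.14, 1.69 and 1.66 in mutant replicates 1, 2 and 3, against -0.01, -0.07 and -0.19 in WT. Replicate 1 was the lowest mutant library in 19 of the 25 jasmonate genes that rose (76%) and in 36.6% of all genes that rose. In the proteasome genes it was the highest mutant library in 42 of 51 genes, against 38.5% of all genes that rose, although there the 3 libraries differed little. With any 1 of the 6 libraries left out, 24 or 25 jasmonate genes still rose, and on the 6 libraries alone 20 did.

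In darkened leaves few jasmonate genes were higher in the mutant. In IDLs of 6 h, 1 d, 3 d and 6 d, 1, 0, 2 and 4 of the 37 genes were higher in the mutant and 12, 12, 8 and 11 lower, with medians of -0.93, -0.42, -0.21 and -0.35, where 7.8% (6 h) to 20% (6 d) of all genes tested were lower. The difference between genotypes itself was lower than at 0 d for 25 of the 37 genes at 6 h and for 27 at 1 d (interaction of genotype and time in limma), against 5.51% and 7.73% of all genes tested (9.16% and 15.5% in either direction). Of all genes that rose at 0 d, the difference was lower for 35.6% at 6 h and 31.9% at 1 d. The 0 d difference enters this interaction and the list was chosen with earlier results known, so a lower difference later is favoured by the choice. For *JAZ2*, named for its large 0 d difference, the genotype difference at 1 d minus that at 0 d was -3.78. Since harvest at 6 h fell at 2 pm and at every other time at 8 am, darkness and hour cannot be told apart at 6 h. Mutant light leaves exist only at 0 d, so in the mutant darkness and day of harvest cannot be told apart at later times.

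The tryptophan, phenylpropanoid and flavonoid pathways start from chorismate, the common precursor of the aromatic amino acids. Their lists differed in the direction of their calls, and a glucosinolate list is set beside them. That list also holds genes of the aliphatic branch, which is not an aromatic pathway. Of 9 tryptophan genes, 6 rose, and of 15 glucosinolate enzyme and transport genes 8 rose, against 9.37% of all genes tested, while 6 of 8 phenylpropanoid entry genes and 14 of 14 flavonoid enzyme genes fell, against 11.2%. The tryptophan genes that rose, with a list median of 1.16 and none that fell, were *ASA1* and *ASB1*, the subunits of anthranilate synthase, the entry enzyme of the branch, *TRP1*, *PAI1*, AT2G04400 (indole-3-glycerol phosphate synthase) and *TSB2*. *ASA1* had 0.84, 1.24 and 1.44 in *rpn12a-236*, against -0.46, -0.68 and -0.68 in WT (difference 1.78, SE 0.25, adjusted p = 8.97e-06). No glucosinolate enzyme or transport gene fell, and those that rose include *CYP79B2* (0.97) and *CYP79B3* (1.37), which turn tryptophan into its oxime, and *CYP83B1* (1.14), *SUR1* (1.63), *UGT74B1* (1.82), *SOT16* (2.28) and *SOT17* (1.09) of the following steps, the last of which acts mainly on the aliphatic branch together with *MAM3* (2.11). *SOT16*, the sulfotransferase of the last step for indole glucosinolates, had 2.48, 2.78 and 2.48 in the mutant, against 0.16, 0.38 and 0.35 in WT, without overlap (adjusted p = 2.64e-08). All 15 differences were above 0, 14 of the 15 genes lay above WT without overlap (20.4% of all genes tested), and 13 were called against all WT light groups of 8 am. *CYP79F1*, *CYP79F2*, *CYP83A1*, *MAM1*, *BCAT4* and *SOT18*, of the aliphatic branch, were among those not called in the main comparison, as were the 5 regulators tested (limma). The calls of *TSB2*, *CYP79B2*, *SOT17* and *MAM3* were lost without any of 2 to 5 libraries, at adjusted p up to 0.0223 (*TSB2*).

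All 14 flavonoid and anthocyanin enzyme genes fell, by 0.54 to 2.04 in z-score, with a median of -0.97, against 11.2% of all genes tested. Their mean was 0.21, -0.10 and 0.26 in the mutant libraries, against 1.41, 1.18 and 1.04 in WT. Chalcone synthase (*CHS*), the first enzyme of the pathway, had 0.30, 0.15 and 0.53 in *rpn12a-236*, against 1.36, 1.16 and 1.13 in WT (difference -0.89, SE 0.14, adjusted p = 3.07e-05). Chalcone isomerase (*CHI*) had -0.39, -0.64 and -0.41, against 1.79, 1.39 and 1.47 (difference -2.04, SE 0.19, adjusted p = 2.61e-08). The flavonol branch fell with *FLS1* (-1.43) and the anthocyanin branch with *DFR* (-0.95), *LDOX* (-1.09) and *UGT75C1* (-1.06), and none of the 14 genes overlapped between the genotypes, where 27.7% of all genes tested were lower without overlap. On the 6 libraries alone only 4 of the 14 passed the threshold. In WT, all 14 enzyme genes also fell after 1 d of darkness (median -2.16, IDLs minus light leaves of the same time), so a strong dark response is part of the scale of these z-scores. With 1 library left out, 11 to 14 of the 14 were called, the fewest without WT replicate 1 or without mutant replicate 2. *F3H* was lost without any of 5 libraries (adjusted p up to 0.0279), *UF3GT* without either of 2 (up to 0.0226), *UGT78D1* without WT replicate 1 (-0.67, adjusted p = 0.0109) and *TT19* without mutant replicate 2 (-0.60, adjusted p = 0.0112).

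Of 10 flavonoid regulators, 5 fell and 1 rose, and on the 6 libraries alone 3 were called. *MYB11* (-1.17), *MYB12* (-1.66) and *MYB111* (-1.44), the activators of flavonol genes, and *MYB90* (-1.83, also called *PAP2*) and *TT8* (-1.46), activators of anthocyanin genes, fell, and *TTG1*, a WD40 partner of the MYB and bHLH factors, rose by 1.61. *MYB12* stood at its floor in all 3 mutant libraries, against 1.33, 0.87 and 0.58 in WT. Upstream, 6 of 8 phenylpropanoid entry genes fell, *PAL1* (-1.29), *PAL2* (-1.56), *PAL4* (-1.36), *C4H* (-1.56), *4CL2* (-1.11) and *4CL3* (-1.93). *PAL2*, 1 of the phenylalanine ammonia-lyases that start the pathway, had -0.36, 0.04 and -0.12 in the mutant, against 1.65, 1.27 and 1.31 in WT. Calls lost without any of several libraries were those of *TTG1* (adjusted p up to 0.0251), *PAL4* (up to 0.0241) and *4CL2* (up to 0.0433).

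**Figure D3:**
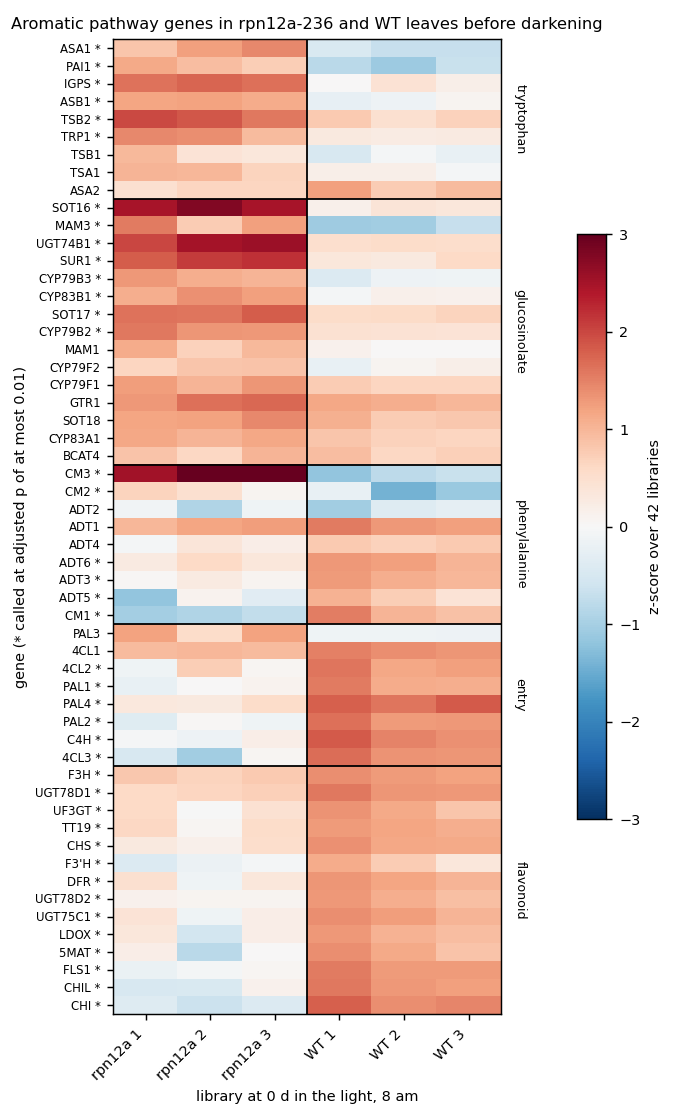
z-scores of the tested genes of 5 lists (rows, in blocks, ordered by difference). These are aromatic pathway lists and the glucosinolate list, which includes genes of the aliphatic branch. Columns are 3 *rpn12a-236* and 3 WT libraries taken at 0 d, with colour from -3 to 3. Asterisks mark called genes. The mutant libraries are redder than WT in the tryptophan and glucosinolate blocks and paler or bluer in the phenylpropanoid entry and flavonoid blocks, where the WT libraries hold the higher values.

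In the phenylalanine branch 4 of 9 genes fell and 2 rose, and 3 were called on the 6 libraries alone. *CM1*, the plastid chorismate mutase whose activity tryptophan promotes and phenylalanine inhibits, had -1.03, -0.90 and -0.73 in the mutant, against 1.53, 1.01 and 0.89 in WT (difference -2.03, SE 0.26, adjusted p = 2.21e-06). *CM3*, another plastid chorismate mutase, had 2.52, 2.98 and 3.26, against -1.18, -0.78 and -0.67 (difference 3.80, SE 0.23, adjusted p = 2.34e-11), among the largest differences of the comparison. The cytosolic *CM2* rose by 1.32, and the arogenate dehydratases *ADT3* (-1.0), *ADT5* (-1.21) and *ADT6* (-0.79) fell. Of 9 genes of the shikimate pathway, which leads to chorismate, *DHS1*, of the first step, rose by 1.43 and the shikimate kinases *SK1* (-1.2) and *SK2* (-1.02) fell. *CM2*, *ADT5* and *ADT6* lost their calls without any of 4 libraries (adjusted p up to 0.0338, 0.051 and 0.0211).

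In IDLs few tryptophan, glucosinolate and flavonoid genes were called in the direction of 0 d. At 6 h, 1 of 9 tryptophan genes was higher and 7 were lower in the mutant (median -1.06), against 5.55% and 7.8% of all genes tested. The genotype difference was lower than at 0 d for 7 of 9 genes at 6 h and for 6 at 1 d, against 5.51% and 7.73% of all genes tested. Of the 15 glucosinolate genes, 1 was higher and 12 were lower in 6 d IDLs of the mutant, against 19.2% and 20% of all genes tested. Of the 14 flavonoid enzyme genes, at most 2 were called at any later time. Their genotype difference was higher than at 0 d for 7 genes at 6 h and 9 at 1 d, against 3.65% and 7.76% of all genes tested. Of all genes that fell at 0 d, it was higher for 21.9% at 6 h and 31.9% at 1 d. The 0 d difference enters these interactions, so a difference nearer to 0 later is favoured by the choice of lists.

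Fewer photosynthesis genes were called before darkening than the 20.6% of all genes tested. Of 39 nuclear genes of the photosystems and their antennae, 1 rose (*LHCB1.4*, 1.17, adjusted p = 0.00267) and none fell, with a median difference of -0.01, and the library means were 0.95 to 1.09 in the mutant, against 0.98 to 1.0 in WT. *LHCB1.4* is 1 of several near-identical antenna genes. Of 16 Rubisco and Calvin cycle genes, 1 fell (*FBA1*, a plastid aldolase, -0.46), and none of 14 chlorophyll synthesis enzymes was called (limma). Still, 12 of these 16 genes lay below WT without overlap, against 27.7% of all genes tested. Their differences were small, from -0.46 to 0.04, and 1 gene lay outside all 12 WT light libraries of 8 am. The mean of the 16 genes was lower in each mutant library than in any WT library. Of the chlorophyll synthesis enzymes, 3 were called lower without variance moderation, and 1 was called higher against all WT light groups of 8 am. The same 39 genes had medians of 0.89, 0.69 and 0.83 in favour of the mutant after 1 d, 3 d and 6 d as IDLs. Among 4 regulators of chloroplast genes, *GLK2* rose by 0.81, while *GNC* (-1.24) and *GNL* (-1.39), GATA factors that respond to light, nitrate and cytokinin, fell. *GNC* had -0.31, 0.13 and -0.20 in *rpn12a-236*, against 1.24, 1.03 and 1.08 in WT. The calls of *LHCB1.4*, *FBA1* and *GLK2* were each lost without any of 2 or more libraries (adjusted p up to 0.0147, 0.0246 and 0.028).

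**Figure D4:**
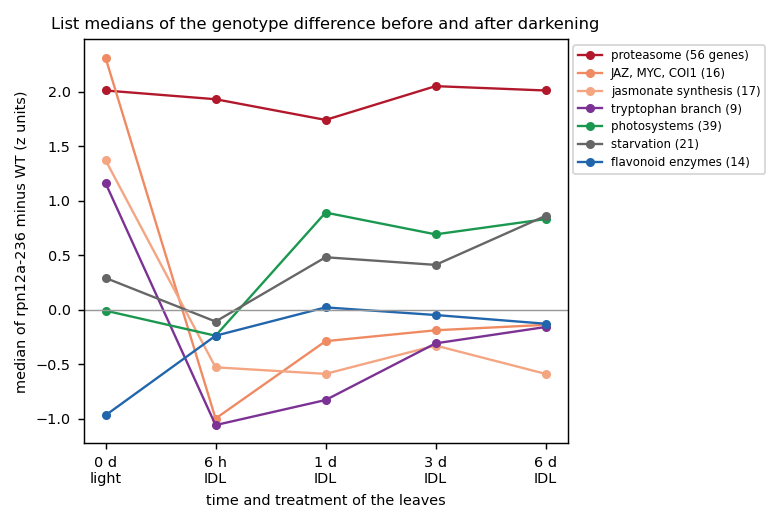
Median over each list of *rpn12a-236* minus WT in z units (vertical axis) at 0 d in the light and in IDLs of 6 h, 1 d, 3 d and 6 d (horizontal axis, times in order and not to scale). Points are list medians, with the number of genes in the legend. The proteasome median stays between 1.74 and 2.05, the jasmonate and tryptophan medians lie above 0 at 0 d and below 0 at the later times, and the photosystem median is -0.01 at 0 d and 0.69 to 0.89 from 1 d on.

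Among senescence genes, NAC factors were called lower more often than all genes tested, and few genes of the other lists were called. Of 12 NAC factors linked to leaf senescence, 6 fell (50%) and 1 rose (8.33%), with a median of -0.39. Of all genes tested, 11.2% fell and 9.37% rose. *ATAF1* had -1.06, -1.01 and -0.73 in the mutant, against 0.89, 0.56 and 0.45 in WT (difference -1.56, SE 0.21, adjusted p = 4.5e-06). *JUB1*, a negative regulator of senescence, fell by 1.88, *NAP* by 0.90 and *ORE1*, an activator of senescence and chlorophyll loss, by 0.50, and *NAC032* (-1.50) and *NAC102* (-1.48), relatives of *ATAF1*, fell as well, whereas *NAC087* rose by 1.4. On the 6 libraries alone 3 of these 7 genes were called. Of 9 chlorophyll breakdown enzyme genes, *HCAR* (-1.04) and *PAO* (-0.64) fell, a share of 22.2%. Of 7 WRKY factors tested, *WRKY57* rose by 1.07 and *WRKY6* fell by 1.74. Of 8 marker genes tested, *SAG20* rose by 1.24 and *SAG113*, a PP2C phosphatase gene, fell by 0.81. In each direction this is 14.3% of the WRKY factors and 12.5% of the markers, near the shares of all genes tested. *ORE1*, *NAC102*, *PAO*, *WRKY6* and *SAG113* lost their calls without any of 2 or more libraries, at adjusted p up to 0.0419 (*PAO*).

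Of 21 genes of sugar starvation, 3 rose and 2 fell (14.3% and 9.52%), shares near the 9.37% and 11.2% of all genes tested, and 1 was called on the 6 libraries alone. *DIN10* (0.80), *TPS11* (0.95) and *AKINBETA1* (0.58) rose and *BCAT2* (-1.79) and *BZIP11* (-0.83) fell, with a median of 0.29. *BCAT2*, a transaminase of branched-chain amino acids, had -2.56, -2.46 and -3.0 in the mutant, against -1.0, -0.80 and -0.83 in WT. In the ATG8 family, ubiquitin-like proteins that coat the autophagosome, 5 of 9 genes fell and 2 rose, of which 1 was called on the 6 libraries alone and 4 without WT replicate 2: *ATG8C*, *ATG8D*, *ATG8F*, *ATG8G* and *ATG8I* by 0.95 to 1.29, against rises of 0.98 for *ATG8E* and 0.85 for *ATG8H*. *ATG8F* had -1.80, -1.90 and -1.99 in the mutant, against -0.88, -0.81 and -1.15 in WT. Of 20 other autophagy genes, AT3G61960, a kinase of the ATG1 group (2.08), AT5G50230, the *ATG16* gene (1.26), *ATG18A* (0.80) and *NBR1* (1.2), the receptor for ubiquitinated cargo, rose, and *ATG3* fell by 0.89. *BZIP11* was lost without mutant replicate 2 (-0.69, adjusted p = 0.0171), and *ATG8C*, *ATG8G* and *ATG8H* without any of 2 or more libraries (adjusted p up to 0.0454 for *ATG8H*).

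Of 23 tested cytosolic chaperone and heat shock factor genes, 1 rose and 4 fell, together a share close to the 20.6% of all genes tested, and on the 6 libraries alone 1 was called higher and 1 lower. *BAG6*, a co-chaperone, rose by 2.06, and those that fell were *HSP101* (-1.07), AT3G12580, an HSP70 (-0.63), AT5G37670, a small heat shock protein (-2.10), and *MBF1C* (-0.79). *HSP101* had -0.22, 0.41 and -0.08 in the mutant, against 1.22, 1.17 and 0.93 in WT. None of 12 endoplasmic reticulum chaperone genes, *BZIP60* included, was called (limma). Among antioxidant enzymes *APX1* fell by 0.77, and among 6 glutathione transferases *GSTU24* (1.98) and *GSTF8* (1.36) rose and *GSTU19* fell (-1.17). *APX1*, *GSTU19* and AT3G12580 lost their calls without any of 3 libraries (adjusted p up to 0.0195, 0.0139 and 0.0208).

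Abscisic acid (ABA) genes were the hormone list with most members called lower. Of 23 tested, 8 fell (34.8%, against 11.2% of all genes tested) and 1 rose, and on the 6 libraries alone 4 were called, all lower. Of these 8, 6 are PP2C phosphatase genes, which hold the ABA signal back and are themselves induced by it: *HAI2* (-2.08), *HAB1* (-1.23), *ABI2* (-1.16), *AHG3* (-1.11), *ABI1* (-0.72) and *HAB2* (-0.64). *HAI2* had -1.07, -1.14 and -1.52 in *rpn12a-236*, against 0.90, 0.86 and 0.75 in WT (SE 0.20, adjusted p = 3.79e-08). The synthesis genes *ABA1* (-0.48) and *ABA2* (-0.79) fell and *COR47* rose by 1.1. *RCAR1*, an ABA receptor gene outside this list, fell by 2.76. *ABA1*, *ABA2*, *ABI1* and *HAB2* lost their calls without any of 4 or 5 libraries, at adjusted p up to 0.0499 (*ABA2*).

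In the other hormone lists the numbers called were 3 of 24 Aux/IAA repressor genes, 6 of 15 gibberellin, 5 of 23 cytokinin, 5 of 21 salicylic acid and 4 of 18 ethylene genes, where 20.6% of all genes tested were called. On the 6 libraries alone 2, 2, 2, 1 and 0 genes of these lists, in this order, were called. *IAA28* had -1.79, -1.14 and -1.42 in the mutant, against 1.12, 1.05 and 1.11 in WT (difference -2.54, SE 0.18, adjusted p = 3.47e-10), and *IAA27* (-1.45) and *IAA26* (-1.13) fell with it, while the other 21 Aux/IAA repressor genes were not called. For gibberellin, the DELLA gene *RGA* (-1.49) and the receptor gene *GID1A* (-1.22) fell, and *RGL3*, a DELLA gene that jasmonate induces, rose by 1.59. *GA2OX6*, which inactivates gibberellin, had 0.10, 1.65 and 1.71 in the mutant, against -1.58, -1.37 and -1.80 in WT (difference 2.74), with mutant replicate 1 again the lowest, and *GA2OX1* (-1.04) and *GA2OX8* (-1.54) fell. Without WT replicate 1 *IAA26* was not called (-0.96, adjusted p = 0.0118), nor was *GA2OX8* without WT replicate 3 (-1.23, adjusted p = 0.0122).

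For cytokinin, the synthesis gene *IPT3* had 2.35, 2.53 and 2.24 in the mutant, against 0.24, 0.50 and 0.84 in WT (difference 1.85, adjusted p = 0.000652). The cytokinin oxidase genes *CKX4* (1.39) and *CKX5* (0.88) also rose, and the response regulator genes *ARR15* (-1.01, groups that overlap) and *ARR16* (-1.13) fell. For salicylic acid, the synthesis gene *ICS1* (-0.83) and its activator *CBP60G* (-1.36) fell, as did *ALD1* (-1.56), and *NDR1* (1.47) and the receptor gene *NPR3* (1.36) rose. *PR1*, the usual response marker, was not called: it had -0.77, 0.25 and -0.86 in the mutant, against -0.80, 0.11 and 0.10 in WT (difference -0.26, adjusted p = 0.771). For ethylene, *ACS8* (0.95) and the receptor gene *ERS1* (0.49) rose and *ERS2* (-0.68) and *EIN2* (-0.96) fell, of 18 genes tested. *CKX5* was lost without mutant replicate 3 (0.70, adjusted p = 0.0183), *ARR16* without mutant replicate 1 (-0.93, adjusted p = 0.0147), and *ARR15*, *ICS1*, *ALD1*, *ERS1*, *ERS2* and *EIN2* without any of 3 or more libraries (adjusted p up to 0.0442 for *ALD1*).

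Clock, scaffold and development genes gave single members. *PRR5* (0.72), *TOC1* (0.77), *CHE* (1.35) and *BOA* (1.29), genes expressed by day or in the evening, rose, and *RVE8* (-0.66) and *RVE4* (-0.77), morning genes, fell. The library means of the 9 morning genes were 0.37 to 0.53 in the mutant, against 0.71 to 0.74 in WT, and those of the 10 day and evening genes were -0.44 to -0.34, against -0.74 to -0.68. Of the 19 clock genes tested, 21.1% rose and 10.5% fell, against 9.37% and 11.2% of all genes tested. On the 6 libraries alone limma called 0 of the 19. Among BTB-TAZ scaffold genes, *BT3* had -0.67, -0.71 and -0.57 in the mutant, against 1.55, 1.31 and 1.37 in WT (difference -2.06, adjusted p = 2e-07), *BT4* fell by 0.67 and *BT5* rose by 0.95. The flowering regulators *FLM* (-1.72) and *SPL15* (-1.92) fell, *FT* stood at its floor in all 6 libraries, and none of 11 cell cycle and expansin genes was called (limma). Lost without 1 library were *PRR5* (0.62, without mutant replicate 2), *CHE* (1.04, without WT replicate 1) and *SPL15* (-1.59, without WT replicate 3), and *BOA*, *RVE4*, *BT4* and *BT5* were lost without any of 3 or more (adjusted p up to 0.0921 for *BT5*).

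Markers of leaf cell types were followed beside these results, since in bulk leaf tissue fewer cells of a type and less RNA per cell cannot be told apart. The mesophyll markers, which define most of a leaf blade, had library means of 0.88 to 1.02 in *rpn12a-236*, against 0.76 to 0.84 in WT, with *LHCB1.4* called among 6. Of 6 guard cell markers *HT1* (1.91) and *KAT1* (0.78) rose, with library means of -0.08 to 0.51 in the mutant, against -0.71 to -0.25 in WT. Of 6 epidermis markers *CER1* rose by 2.15 and *PDF2* fell by 1.71. *SWEET12* was the called gene among 6 phloem markers (1.11), and the library means of this list were -0.59 to -0.33 in the mutant, against -1.0 to -0.72 in WT. None of 5 xylem or 3 trichome markers was called (limma), although their library means were -0.10 to 0.17 and 0.56 to 0.79 in the mutant, against 0.29 to 1.32 and 0.95 to 1.26 in WT. Of 5 flower markers 3 were not tested, and *SEP3* rose by 2.23 with 2 WT libraries at its floor. *HT1*, *KAT1* and *CER1* lost their calls without any of 2 or more libraries (adjusted p up to 0.0538, 0.0121 and 0.0261). The part of cell composition in the differences above was not tested.

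The 10 named genes with the largest rise include several tied to jasmonate. *ILL6* and *IAR3*, hydrolases that cleave amino acid conjugates of jasmonate, rose by 3.84 and 3.42, and *JAZ2* by 3.38. *ILL6* had 1.88, 2.46 and 2.56 in *rpn12a-236*, against -1.37, -1.33 and -1.92 in WT. The others are *CM3* (3.80), the lectin receptor kinase genes *CES101* (3.73) and *LecRK-I.9* (3.58, AT5G60300, the receptor for extracellular ATP), *ARO4* (3.65), *MEB1*, a membrane protein of the ER body (3.61), the transporter gene *ABCG30* (3.58) and the glutaredoxin gene *GRX480* (3.55, AT1G28480).

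Those with the largest fall have varied roles. *SHL1*, a chromatin reader, fell by 3.27 (-1.94, -2.11 and -2.80 in the mutant, against 1.35, 0.69 and 0.92 in WT). *ORP2B*, an oxysterol-binding protein (-3.23), *RMA2* (-3.17) and *UBC4* (-2.78), a ubiquitin ligase and a ubiquitin-conjugating enzyme, *TTN1*, a tubulin folding cofactor (-3.01), *ETFBETA*, of the mitochondrial electron transfer flavoprotein (-2.97), the histone gene *HTA12* (-2.82), *FP3* (-2.82) and *RCAR1* (-2.76) follow. *SPS1F*, a sucrose phosphate synthase that sets the rate of sucrose synthesis in leaves, had -1.30, -1.30 and -1.55 in the mutant, against 2.1, 1.66 and 1.11 in WT (difference -3.0, SE 0.24, adjusted p = 2.39e-09). These 20 genes were chosen by the size of their difference, so their values describe the ends of the distribution.

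The 0 d differences were then set beside the dark response of WT, measured on other libraries (IDLs minus light leaves of 1 d). Of the 2010 genes that rose in the mutant, 710 (35.3%) were also higher in darkened WT leaves and 243 (12.1%) were lower, where 21% and 25.1% of all genes tested were called higher and lower (46.1% in all). Of the 2399 genes that fell, 1135 (47.3%) were also lower in darkened WT leaves and 406 (16.9%) were higher. The 1845 genes with the same direction are 41.8% of the 0 d calls and 18.7% of the dark calls. The z-scores of a gene share 1 scale over the 42 libraries, and no test of this overlap was made. Proteasome genes were mostly not part of it: after 1 d of darkness in WT, 5 of the 56 were higher and 7 lower. The flavonoid enzyme genes were, and photosystem genes fell in darkened WT leaves (34 of 39), of which 1 was called between the genotypes at 0 d. In WT light leaves harvested at 2 pm, compared with those of 8 am, 1036 of the 4409 genes called at 0 d had the same direction and 465 the opposite one, with 25.8% of all genes tested called.

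Part of the 0 d difference was also present in darkened leaves. Of the 4409 calls, 941 (21.3%) were called in the same direction in 6 h IDLs, 1348 (30.6%) in 1 d IDLs, 1622 (36.8%) in 3 d IDLs and 1783 (40.4%) in 6 d IDLs, against 203, 276, 336 and 526 in the opposite direction. In either direction, 25.9%, 36.8%, 44.4% and 52.4% of the 0 d calls were called at these times. Of all genes tested, 13.4%, 26.1%, 31.4% and 39.2% were called in either direction. Higher in the mutant at 0 d and at all 4 later times were 315 of the 2010 genes that rose, and lower at all 5 times were 176 of the 2399 that fell. At no later time were 843 (41.9%) of the genes that rose and 1021 (42.6%) of those that fell called in the same direction. At 1 d the difference itself was lower than at 0 d for 641 (31.9%) of the genes that rose and higher for 765 (31.9%) of those that fell. Of all genes tested, the interaction was lower for 7.73% and higher for 7.76% (15.5% in either direction). Since the genes that rose or fell were called on the 0 d values that enter this interaction, a difference nearer to 0 later is favoured by the choice.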

How the data were processed

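Leaf RNA-seq libraries of WT and *rpn12a-236* were used as deposited. Per the labels and the study's methods, the authors filtered rRNA reads, trimmed with Trimmomatic, quantified TAIR10 transcripts with kallisto 0.43.0 in a strand-specific way, summed them to genes with tximport and applied the blind variance stabilizing transformation of DESeq2 1.14.1. The deposited unit is a score, 1 z-score per gene over the 42 libraries. Depth is not kept in it, and the spread between replicates served in its place.

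Groups followed the labels, and all columns were assigned to a sample. limma 3.58.1 in R 4.3.3 was fitted to the 30 libraries of the time course (10 groups, no covariates, moderated variances), with Benjamini-Hochberg adjustment over the 21444 genes tested and calls at 0.01. The counts of this fit and of the fit on 6 libraries were known when it was chosen. The members and lists were chosen with earlier results of these data known. The p-values cover the spread between pools of leaves. The WT dark response, the time of day and leaf age were fitted on all 42 libraries. Interactions set a later genotype difference against that of 0 d. The code was tested on simulated data. Named genes are those with homozygous coding changes, the 10 called genes with the largest difference in each direction (no overlap, no library at the floor, a symbol in the reference), up to 3 members with the smallest p in each direction of each list, and members that small counts refer to. Further list members were named after their values were seen. Alternatives were the fits on 6 and on 42 libraries, WT light leaves of 8 am as the comparison group, no moderation, other filters, centred libraries, the replicate number as a block, each replicate left out and a threshold of 0.001. Python 3.11.15 read sequences and RefSeq names from TAIR10.1, and matplotlib 3.10.9 drew the plots.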

Additional observations from a re-analysis of the deposited data

Results flagged for a closer look

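Of the 20 named genes with the largest differences at 0 d, 19 differed from 0 d in their genotype difference after 1 d as IDLs (interaction in limma), and *TTN1* did not. These genes were chosen for their 0 d difference, which enters the test, so a difference nearer to 0 at 1 d is favoured by the choice. Given as the difference at 1 d minus that at 0 d, it was lower for *GRX480* (-4.21), *IAR3* (-3.96), *CES101* (-3.83), *JAZ2* (-3.78), *CM3* (-3.74), *ILL6* (-3.62), *LecRK-I.9* (-3.54), *ARO4* (-3.53), *MEB1* (-3.44) and *ABCG30* (-3.06). It was higher for *FP3* (4.35), *SHL1* (4.19), *UBC4* (3.39), *ETFBETA* (3.29), *RMA2* (3.11), *ORP2B* (3.00), *HTA12* (2.3), *RCAR1* (2.19) and *SPS1F* (1.69).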

How the results depend on the processing

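The number of genes called at 0 d, 4409 in the fit on 30 libraries, was 1962 on the 6 libraries of 0 d, 7248 against the WT light leaves of 8 am (0 d to 6 d), 2324 at a threshold of 0.001, and between 4018 and 4445 on 42 libraries, without moderation, with other filters and with centred libraries. Leaving out 1 library gave 3254 to 3515 genes and 49 to 51 proteasome genes. At 0.001, the 0 d calls that darkness moved the same way in WT numbered 865, and those called alike at 6 h, 1 d, 3 d and 6 d numbered 451, 623, 806 and 903. The replicate numbers did not pair the samples (correlations of same-numbered deviations between -0.0661 and 0.0039). The replicate block left 4367 genes in the fit on 30 libraries. On the 6 libraries alone, an alternative chosen after seeing the data, limma with the replicate block called 0 genes, of the proteasome 0, with 8186 genes at an unadjusted p under 0.05. A set of 319 genes was followed through these settings, and it leaves out some of the genes named above. Of its 162 called genes, 35 lost the call with at least 1 library left out, and 11 genes not called gained one. Genes outside this set lost calls as well, as given with each list. *CKX7*, not called, was the only gene of the 319 whose direction turned at a call, to 0.45 against the WT light leaves of 8 am. Centring the libraries moved the median of all genes to -0.078 and the calls to 2083 higher and 2289 lower. Depth could not be read from z-scores, so a gene that was not called may differ by less than these 3 libraries can show.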
